A study of Mus musculus with 8 samples.

Results

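The last 3 Mb of each mouse autosome, next to the telomere of the long arm, were described by their CpG methylation in embryonic stem cells. A CpG was taken as subtelomeric when it lay on chromosomes 1 to 19, within 3000000 bases of the highest position listed for its chromosome in any library, and had 10 or more reads in all 8 libraries. This gave 21682 CpGs of the 622768 that were covered to this depth on chromosomes 1 to 19, X and Y. The rest of the 19 autosomes held 595247 CpGs and served as the comparison. Positions are those of the build mm9, and the end of a chromosome here is its highest listed CpG, which need not be the last base of the assembly.

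The cells were embryonic stem cells of strain 129/SvP, grown sparsely in serum and leukaemia inhibitory factor (FBS/LIF), the cytokine that sustains self-renewal. They received 500 µM vitamin C, 1 mM L-proline, both or neither, and DNA was taken on day 2 or day 5. Each of the 8 combinations had 1 library of reduced representation bisulfite sequencing (RRBS), which reads CpG-rich restriction fragments and counts the cytosines that resist bisulfite conversion, 5-methylcytosine and 5-hydroxymethylcytosine alike. Expression was not measured in these files, so the cell type rests on the labels, which do not name the line, its passage or separate cultures. P-values over libraries or pairs therefore measure only the spread between these libraries.

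Subtelomeres are the stretch of chromosome between the telomere repeats and the gene-bearing arm. In mouse embryonic stem cells their CpGs are methylated by the DNA methyltransferases, and their methylation has been studied for its relation to telomere length, recombination between telomeres and transcription from chromosome ends. Mouse chromosomes are acrocentric, so each has a single long arm with 1 distal subtelomere. Vitamin C is a cofactor of the TET dioxygenases, which oxidise 5-methylcytosine. L-proline is an amino acid that, added to the medium, moves these cells away from the naive state, and the series pairs the supplements as opposed in effect. The comparisons below asked whether chromosome ends stood apart from the rest of their chromosomes in level or in response.

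Covered CpGs were denser at the ends, with 380.4 per Mb in the 19 windows against 252.6 per Mb in the rest, and the window was the denser part on 11 of 19 chromosomes. The windows were very unequal: chromosome 11 held 3442 of the CpGs, chromosome 4 held 2946, chromosome 15 held 2576 and chromosome 2 held 2267, together 51.8%, while chromosomes 17 and 18 held 88 and 108. A mean over CpGs is thus largely a mean over these 4 chromosomes. Median depth at subtelomeric CpGs ran from 27 to 56 reads per library and was within 1 read of the rest in every library, with 650107 to 1386022 reads in all per library. Because methylation falls steeply with CpG density, each subtelomeric CpG was compared with the CpGs of the rest of the same chromosome in the same density class, counted as covered CpGs per 1 kb tile. The matched value is the mean of those CpGs.

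Chromosome ends carried nearly the same methylation as the matched rest of their chromosomes. On day 2, mean subtelomeric methylation was 17.3% in untreated cells, 19.3% with L-proline, 14.9% with vitamin C and 16.4% with both. On day 5 it was 19.3%, 21.9%, 14.5% and 15.9% in the same order. The highest library was L-proline on day 5 and the lowest vitamin C on day 5, and the 4 libraries with vitamin C all lay below the 4 without it. The matched rest had 17.4%, 19.5%, 15.3% and 16.7% on day 2 and 19.5%, 22.2%, 14.7% and 16.3% on day 5.

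**Figure D1:**
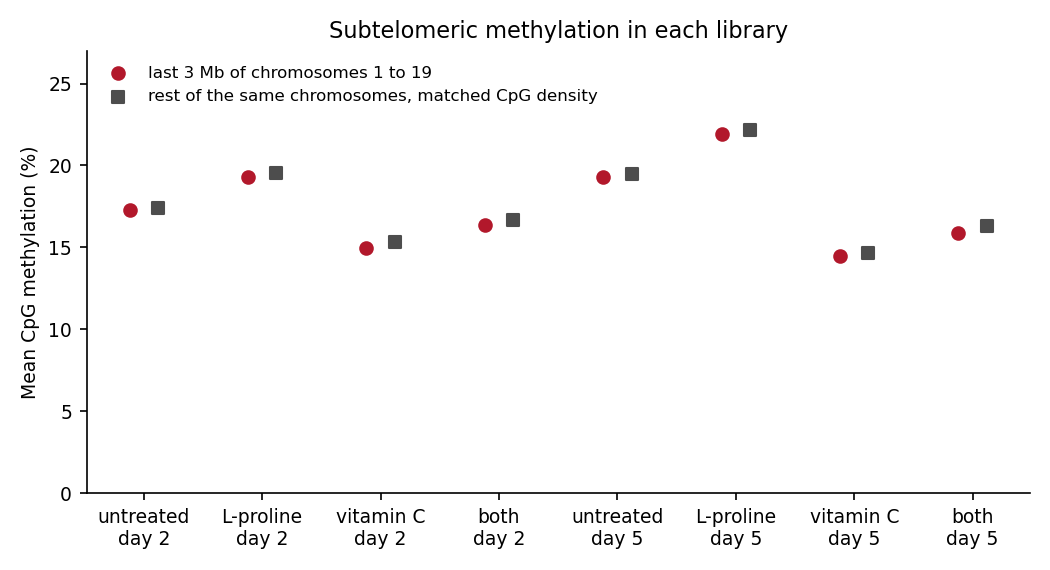
Mean CpG methylation in percent (vertical axis) for each of the 8 libraries (horizontal axis), in the last 3 Mb of the autosomes (circles) and in the density-matched rest of the same chromosomes (squares). In each library the circle lies slightly below the square, with gaps from -0.424 to -0.156 points.

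The subtelomeric mean lay below the matched rest in 8 of 8 libraries, with a mean gap of -0.265 ± 0.0960 percentage points (SD, n = 8 libraries; exact two-sided sign-flip permutation p = 0.00781, the smallest that 8 libraries allow). The gaps of the 19 single windows had an SD of 2.68 points. The sign of the mean gap rested on chromosome 15: without that chromosome it was 0.289 points above the rest, and without chromosome 10 it was -0.0105. It also changed sign with a minimum of 20 reads, to 0.205 points above, and with windows of 5 Mb, to 0.282 points above. Both of these gaps were above 0 in 8 of 8 libraries, with the same sign-flip p of 0.00781. The libraries share the same CpGs, so this p measures how steady a gap was between libraries, not how chromosome ends vary. Without density matching the gap to the rest of the same chromosomes was -1.65 points.

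The makeup of levels was close as well. CpGs under 5% made up 63.9% to 73.9% of subtelomeric CpGs per library and 64.9% to 73.6% of the matched rest. CpGs of 80% or more made up 7.50% to 16.8% and 7.53% to 17.2%. By density, tiles of 1 to 2 covered CpGs averaged 64.7% over the 8 libraries against 66.0% in the matched rest, and tiles of 41 or more averaged 0.740% against 0.790%. Tiles at the ends with few covered CpGs were thus mostly methylated and those with many mostly unmethylated, as in the rest.

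Some single windows stood far from the rest of their chromosome, in both directions, while others lay close to it. The large windows of chromosomes 2 and 11, for instance, had gaps of 0.644 and 0.666 points. Of the 19 windows, 7 lay above their matched rest in all 8 libraries, 9 lay below it in all 8, and 3 (chromosomes 5, 17 and 19) were mixed. The highest was chromosome 16, with 746 CpGs at 22.6% against 18.8%, a gap of 3.85 ± 0.302 points (SD, n = 8 libraries). Chromosome 4 followed, with 21.1% against 17.9% and a gap of 3.23 ± 0.183, then chromosome 1 with 29.5% against 26.3% and a gap of 3.19 ± 0.386. These 3 windows exceeded their matched rest in every library, treated or not.

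At the other extreme, the window of chromosome 12 averaged 12.7% over 459 CpGs against 18.8%, a gap of -6.05 ± 0.598 points. Chromosome 15 averaged 15.7% against 20.1%, a gap of -4.38 ± 0.517, and chromosome 10 averaged 17.3% against 21.5%, a gap of -4.14 ± 0.956. The SD here is over libraries that share the same CpGs, so it measures how steadily a window kept its place, not how such windows vary. Chromosome 17, the most methylated window at 53.2%, held few tiles, with few covered CpGs in them, and its matched rest stood at 52.3%.

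**Figure D2:**
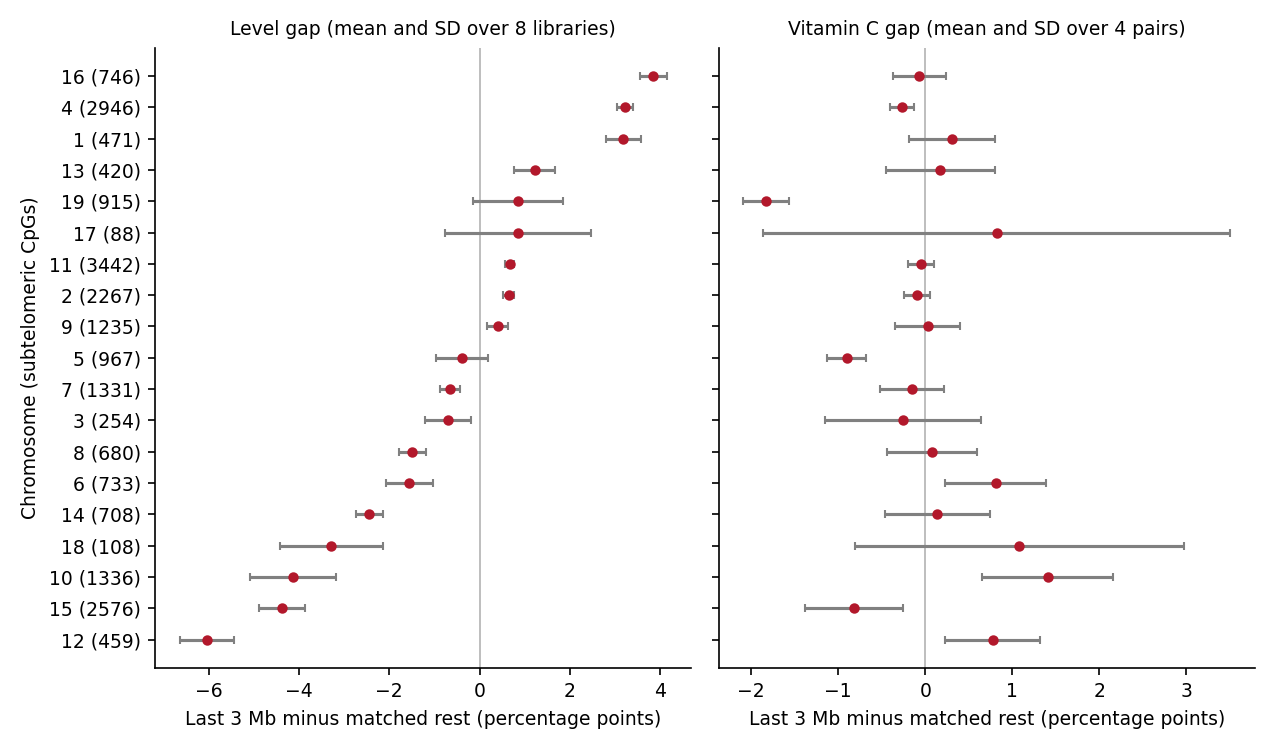
Last 3 Mb minus density-matched rest in percentage points (horizontal axes) for each autosome (vertical axis, with its number of subtelomeric CpGs), as level averaged over 8 libraries (left) and as vitamin C difference averaged over 4 pairs (right); bars are SDs. Level gaps run from -6.05 points on chromosome 12 to 3.85 on chromosome 16, and vitamin C gaps from -1.83 on chromosome 19 to 1.41 on chromosome 10.

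In bins of 0.5 Mb, the outer part of the windows had lower means than the inner part. Against CpGs of the same chromosomes and density more than 6 Mb from the end, the gap was -1.90 ± 0.342 points in the last 0.5 Mb (2836 CpGs) and -1.65 ± 0.195 from 0.5 to 1 Mb (2931 CpGs; SDs over 8 libraries). It was -0.545 from 1 to 1.5 Mb and 0.881 from 1.5 to 2 Mb. Just inside the limit of the window, from 2.5 to 3 Mb, the mean level was 21.8% and the gap 0.698. Just outside it, from 3 to 3.5 Mb, they were 21.7% and 1.68. Lower bin means were thus seen within the last 1.5 Mb, not at the limit of the window. Values by chromosome and within the last 0.5 Mb, given below, went both ways.

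Over the outer 1 Mb taken alone, methylation averaged 14.5% against 16.3% in the matched rest of the chromosomes, a gap of -1.81 points that was below 0 in 8 of 8 libraries (exact sign-flip permutation p = 0.00781). That p is over libraries that share the same CpGs, not over chromosomes. In the values by chromosome that follow, the matched rest was taken beyond 3 Mb from the end, not beyond 1 Mb as in this mean. Of the 19 chromosomes, 8 were below in every library and 5 above in every library. The gap was lowest on chromosome 15, at -8.88 points over 892 CpGs. Without that chromosome the mean gap, against the rest beyond 3 Mb, was -0.476. Chromosomes 9 (-6.11 points, 192 CpGs) and 6 (-3.00 points, 268 CpGs) were also below in every library, and chromosome 3 was above (18.2 points, 40 CpGs). The 1210 CpGs of chromosome 4 lay at -2.10 in the outer 1 Mb, although the whole window of that chromosome was high.

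In the mean, the last 100 kb differed again. In the last 50 kb, 339 CpGs on 18 chromosomes averaged 18.5%, 1.40 points above the matched rest in the mean and above it in 8 of 8 libraries. This mean mixed large gaps of both signs on few CpGs. The gap was 32.1 points over the 13 CpGs of chromosome 1 and 34.2 over the 8 of chromosome 14. It was -5.20 over the 90 CpGs of chromosome 4 and -56.6 over the 7 of chromosome 17. The mean was not computed without single chromosomes, so it is not a trait of all 18 ends. The 281 CpGs from 50 to 100 kb averaged 16.9%, 1.16 points above, in 7 of 8 libraries. Those from 100 to 200 kb averaged 26.8% against 31.96% and those from 200 to 500 kb 11.96% against 14.4%. Most CpGs of the last 50 kb lay on chromosomes 4, 5, 13 and 19, which averaged 5.50%, 17.0%, 7.92% and 4.98%. The last CpGs of several other chromosomes were heavily methylated. The 13 CpGs in the last 50 kb of chromosome 1 averaged 82.6% (80.5% to 85.0% over the 8 libraries), and the 8 of chromosome 14 averaged 91.2%. The 6 CpGs of chromosome 8 averaged 81.3%. The 3 CpGs of chromosome 6 and the 7 of chromosome 17 averaged 0.839% and 0.701%. These ends were picked out after their values were seen.

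**Figure D3:**
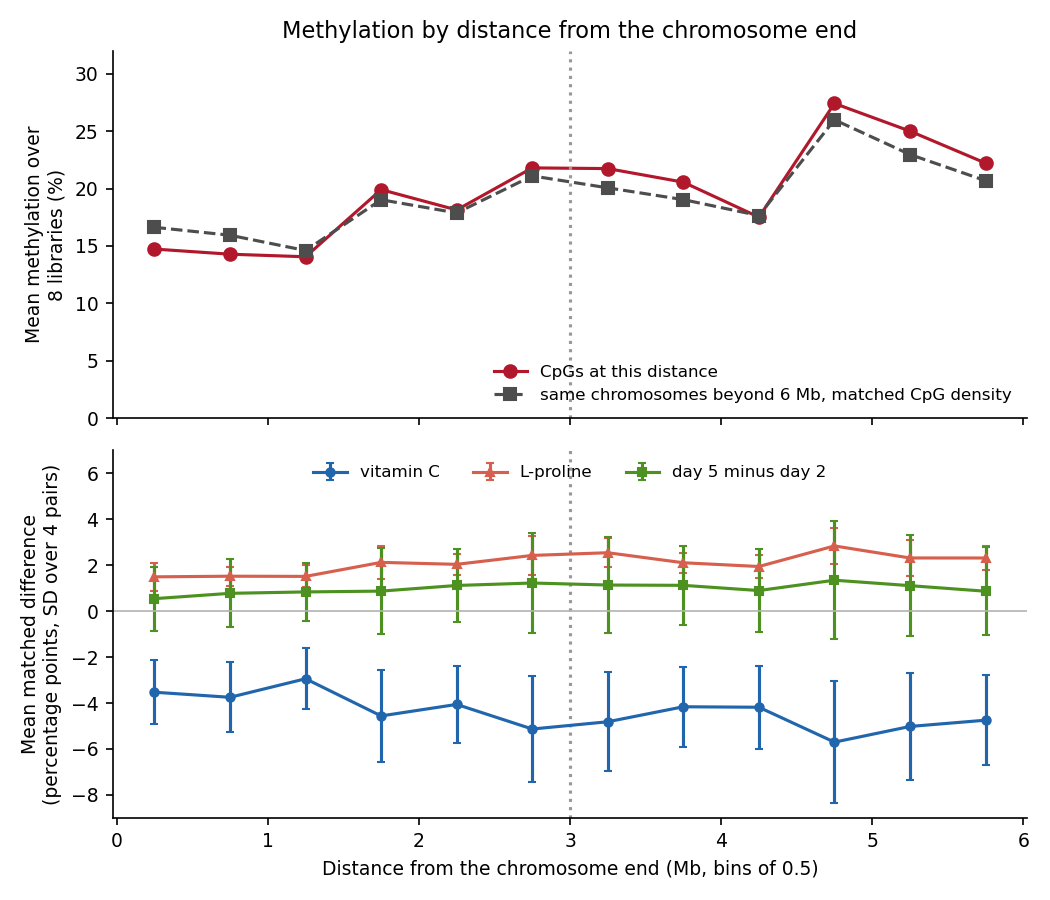
Top, mean methylation over 8 libraries in percent by distance from the chromosome end in bins of 0.5 Mb (circles), with the density-matched mean of the same chromosomes beyond 6 Mb (squares). Bottom, mean matched differences in percentage points with their SD over 4 pairs; the dotted line is the 3 Mb limit. In the outer 2 bins the circles lie 1.90 and 1.65 points below the squares.

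Vitamin C went with lower methylation at chromosome ends, by nearly the amount seen in the matched rest. Vitamin C alone differed from untreated cells by -2.34 points at the ends on day 2 and by -4.83 on day 5. Both supplements differed from L-proline alone by -2.92 and -6.06. The mean was -4.04 ± 1.72 points (SD over the 4 pairs), lower in each of the 4 (two-sided exact sign-flip p = 0.125, the smallest that 4 pairs allow). In the matched rest the differences were -2.10, -4.84, -2.84 and -5.86, with a mean of -3.91 ± 1.74. The gap between the ends and the matched rest was -0.127 ± 0.112 points, from -0.233 to 0.00808 over the pairs and negative in 3 of 4 (p = 0.25 in the same exact test). The change at the ends thus lay close to that of the matched rest in each pair.

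Relative to the level without vitamin C, the ends changed by -20.3 ± 7.04% and the matched rest by -19.5 ± 7.21%. The ends had the larger relative loss with a gap of -0.864 ± 0.561 percentage points and the same sign in 4 of 4 pairs (p = 0.125 in the exact test). Matching on methylation class as well as on density left the gap at -0.136 points. The sign of the gap in points was not steady: it was 0.0852 with windows of 1 Mb, 0.0610 with the 19 chromosomes weighted equally and 0.116 without density matching. The relative gap was not computed under these settings, so its steadiness is not known.

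**Figure D4:**
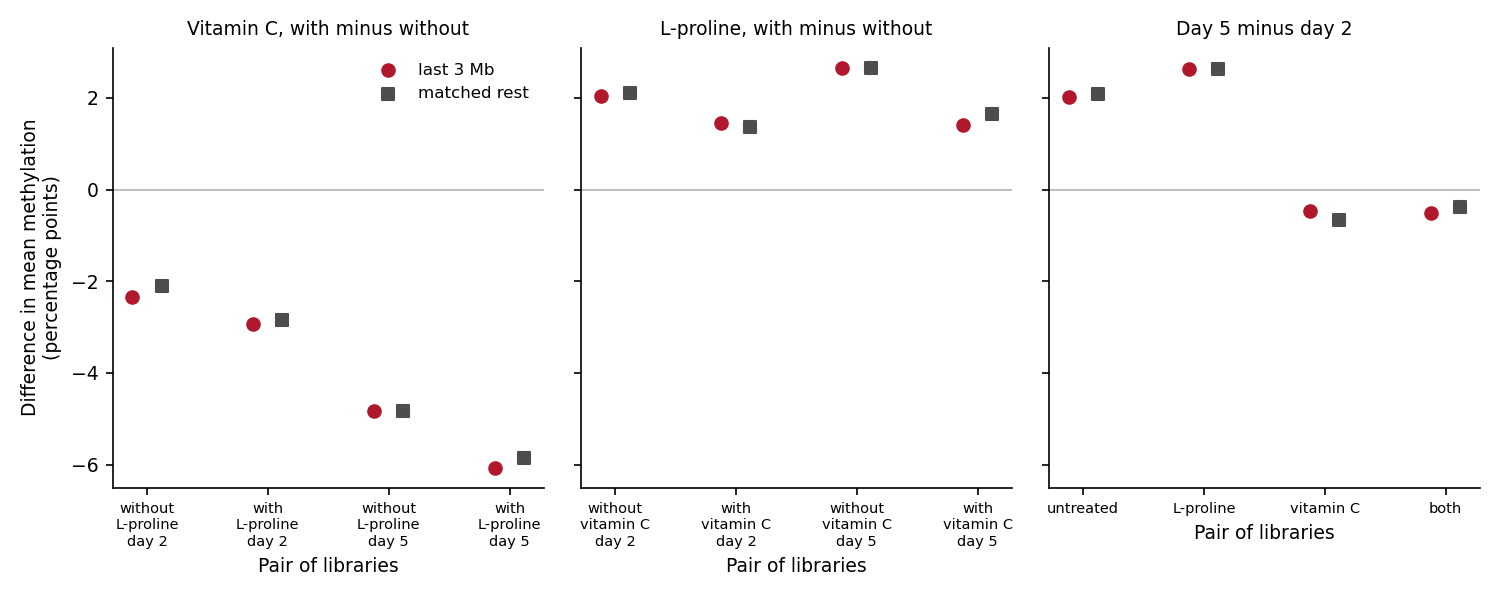
Difference in mean methylation in percentage points (vertical axis) for the 4 matched pairs of libraries of each factor (horizontal axis), in the last 3 Mb (circles) and the density-matched rest (squares). Vitamin C differences run from -6.06 to -2.34 and L-proline differences from 1.42 to 2.65 at the ends, with gaps to the squares from -0.233 to 0.0909 points.

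The difference with vitamin C varied with the level of the CpG. CpGs were placed by their mean in the 6 libraries outside each pair, so that the pair did not choose them. Those 6 libraries included cells with and without each supplement, so a class is not a level independent of treatment. Subtelomeric CpGs of 20 to 40% differed by -20.02 ± 10.1 points (SD over the 4 pairs), those of 40 to 60% by -18.5 ± 7.55 and those of 60 to 80% by -16.4 ± 6.27. CpGs of 80% or more differed by -8.33 ± 2.59, those of 5 to 20% by -10.3 ± 6.67 and those under 5% by -0.489 ± 0.397. Matched on chromosome, density and class, the rest differed by -18.5, -18.8, -16.4, -8.07, -9.98 and -0.417 in the same order. The widest gap was in the class of 20 to 40%, where the gap of the ends was -1.498 ± 0.740 points, negative in 4 of 4 pairs.

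**Figure D5:**
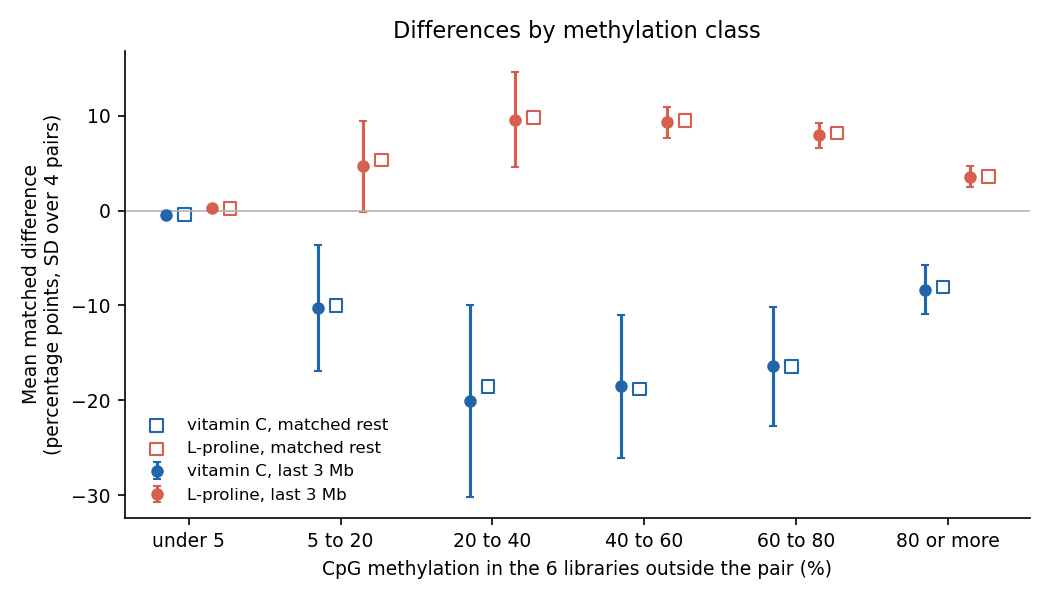
Mean matched difference in percentage points (vertical axis) for vitamin C and L-proline by methylation class of the CpG in the 6 libraries outside the pair (horizontal axis, percent), in the last 3 Mb (filled, with SD over 4 pairs) and the matched rest (open squares). Intermediate classes moved most, from -20.02 points with vitamin C to 9.58 with L-proline at 20 to 40%, and open and filled symbols lie close together.

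All 19 windows were lower with vitamin C in all 4 pairs, and so was the matched rest of all 19 chromosomes. The mean difference per window ranged from -8.79 points on chromosome 17, where levels were highest, through -6.62 on chromosome 5 and -5.32 on chromosome 19, to -1.89 on chromosome 6, -2.94 on chromosome 12 and -2.95 on chromosome 14. Against the matched rest, 4 windows (chromosomes 4, 5, 15 and 19) lost more in all 4 pairs and 3 (chromosomes 6, 10 and 12) lost less in all 4 pairs.

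Chromosome 19 had the largest excess. Its 915 subtelomeric CpGs averaged 16.1% in untreated cells of day 2 and 17.9% in those of day 5, and L-proline gave 18.1% and 20.4%. With vitamin C alone and with both they averaged 12.5% and 13.9% on day 2, and 11.97% and 12.9% on day 5. The window lay above its matched rest in the 4 libraries without vitamin C and near it in the 4 with vitamin C. Its difference was -5.32 ± 1.76 points against -3.49 in the matched rest, a gap of -1.83 ± 0.266 (SD over the 4 pairs). The excess lay from 1.5 to 2.5 Mb from the end, where 232 and 244 CpGs differed by -7.20 and -7.60 points against -4.20 and -4.16, and in the last 0.5 Mb, where 214 CpGs differed by -3.95 against -2.18.

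Chromosomes 5 and 15 had gaps to the vitamin C difference of their matched rest of -0.902 ± 0.224 and -0.823 ± 0.561 points, and chromosome 4 one of -0.272 ± 0.138. On chromosome 15 the window lost more although its level was low. The window averaged 15.6% in untreated cells of day 2 and 18.0% of day 5, and 12.9% and 11.9% with vitamin C. The window of chromosome 10 lost 1.41 ± 0.751 points less than its matched rest, that of chromosome 6 lost 0.806 ± 0.575 less and that of chromosome 12 lost 0.774 ± 0.547 less. The 3 that lost less also lay below their matched rest in level. The share that lower levels had in this was not tested for single chromosomes.

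Some heavily methylated CpGs at the very ends moved little. In the last 50 kb of chromosome 1 the vitamin C difference was -0.281 points against -9.90 at CpGs of the same density in the rest of the chromosome, and on chromosome 14 it was -3.27 against -10.2. On chromosome 8 it was 0.947 ± 7.37 (SD over the 4 pairs) against -7.86. On these chromosomes the difference lay above that of the rest in all 4 pairs. The ends of chromosomes 19, 13 and 18, with mean levels of 4.98%, 7.92% and 55.8%, moved more than the rest in all 4 pairs. The differences were -5.67 against -1.29 on chromosome 19 (97 CpGs) and -5.74 against -1.94 on chromosome 13 (43 CpGs). On chromosome 18 (5 CpGs) they were -20.7 against -10.9. The 5 CpGs of chromosome 7 differed by -15.5 against -10.6, a gap of -4.87 ± 6.02 points that was less than its spread over pairs. Each of these values rests on 5 to 97 CpGs, and the comparison was not matched on level.

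Tiles of 1 kb with 3 or more covered CpGs were tested across the 8 libraries with limma. The model had 1 additive term per factor and was fitted over all 50167 tiles, of which 1663 held subtelomeric CpGs. With vitamin C, 396 subtelomeric tiles (23.8%) were called lower at a Benjamini-Hochberg adjusted p under 0.05 and 10 points or more, beside 23.2% of all tiles. The share at the ends was close to the background. With no minimum difference 597 were lower (35.9%), beside 34.3%, and at an unadjusted p 841 (50.6%), beside 47.7%. No subtelomeric tile was called higher, as among all tiles (0%). With no minimum difference 6 were higher (0.361%), beside 0.171% of all tiles. At an unadjusted limma p under 0.05, 13 were higher (0.782%), beside 0.588%. The median tile difference was -5.24 points at the ends and -5.07 over all tiles. Lower in all 4 pairs were 867 subtelomeric tiles (52.1%), beside 49.0% of all tiles. Calls measured against a common median were few: with each library centred to 1 median, 9 subtelomeric tiles (0.541%) were called lower and none higher, beside 0.409% of all tiles lower.

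Calls with vitamin C fell with CpG density at the ends as in the rest. Of tiles with 3 to 5 covered CpGs, 296 of 812 (36.5%) were called, against 33.7% in the rest of the autosomes. Of tiles with 6 to 10, 81 of 327 (24.8%) were called, against 24.8%. Of those with 11 to 20, 17 of 233 (7.30%) were called, against 7.77%, and of those with 21 to 40, 2 of 192 (1.04%), against 1.02%. None of the 99 densest was called, and none in the rest. By chromosome the share ranged from 3 of 33 tiles on chromosome 12 (9.09%) to 10 of 19 on chromosome 3 (52.6%), where the rest of the chromosome had 21.6% and 22.7%. Chromosome 5 had 35 of 95 (36.8%) beside 24.5% in its rest, and chromosome 15 had 58 of 221 (26.2%) beside 22.2%. The number of subtelomeric calls was 117 without the untreated library of day 5, 176 without L-proline of day 5, 142 without vitamin C of day 5 and 100 without both of day 5, beside 3092, 4706, 3740 and 2659 of all 50167 tiles. The number leaned on the day 5 libraries at the ends as over all tiles. A quasi-binomial model called 18 subtelomeric tiles (1.08%) lower and none higher, beside 1.18% of all tiles lower.

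The largest subtelomeric loss with vitamin C was in the tile on chr1:195335001-195336000, 1858 kb from the end (4 CpGs, 106 to 335 reads per library). On day 2 it was at 56.3% in untreated cells, 60.8% with L-proline, 20.2% with vitamin C and 36.1% with both. On day 5 it was at 65.8%, 83.9%, 15.9% and 34.0%. The libraries with and without vitamin C did not overlap, and with both supplements the level lay above vitamin C alone on both days. The mean difference was -40.1 ± 12.2 points (SD over the 4 pairs; limma adjusted p = 0.0106).

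The tile on chr5:149616001-149617000 (4 CpGs) was at 37.1%, 61.2%, 20.4% and 41.7% on day 2 and at 85.8%, 93.4%, 23.4% and 37.4% on day 5, in the order untreated, L-proline, vitamin C, both. The vitamin C difference there was -38.7 ± 23.9 points (limma adjusted p = 0.0132). Here the groups overlapped, since both supplements on day 2 exceeded untreated cells of day 2. Next came chr4:153710001-153711000 (3 CpGs), which averaged 55.7% without and 17.2% with vitamin C, and chr15:102793001-102794000 (5 CpGs), which averaged 55.2% and 17.0%. The fifth was chr9:122504001-122505000 (3 CpGs), with 76.3% and 39.1%. Their limma adjusted p-values were 0.0116, 0.0111 and 0.0126.

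Gains with vitamin C at the ends were slight. Of all subtelomeric tiles, 25 (1.503%) were higher in all 4 pairs, beside 1.25% of all tiles, and the largest of these differences was 1.23 ± 1.36 points, on chr1:197183001-197184000, which did not pass (limma adjusted p = 0.834). That tile lies 10.1 kb from the listed end and stayed between 78.0% and 82.0% in all 8 libraries (7 CpGs, 108 to 393 reads). The next were nearly unmethylated tiles on chr14:122933001-122934000 (0.880 points), on chr10:127986001-127987000 (0.739) and chr10:127985001-127986000 (0.724), and on chr16:96304001-96305000 (0.640). None reached the minimum difference of 10 points.

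L-proline went with higher methylation at the ends, by an amount near that of the matched rest. The subtelomeric mean differed by 2.04 points on day 2 and 2.65 on day 5 between L-proline alone and untreated cells. Added to vitamin C, L-proline went with 1.45 and 1.42 points more. The mean was 1.89 ± 0.581 points (SD over the 4 pairs), higher in each of the 4 (two-sided exact sign-flip p = 0.125), against 1.94 ± 0.568 in the matched rest. With reads pooled over CpGs the difference was 3.16 points. The gap was -0.0503 ± 0.130 points, from -0.221 to 0.0909 over the pairs (p = 0.625 in the same exact test). In the outer 1 Mb the difference was 1.51 points and the gap -0.317 ± 0.184, negative in each of the 4 pairs (p = 0.125 in the exact test).

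By level, subtelomeric CpGs of 20 to 40% differed by 9.58 ± 5.02 points with L-proline, those of 40 to 60% by 9.32 ± 1.64 and those of 60 to 80% by 7.94 ± 1.32, against 9.79, 9.50 and 8.19 in the matched rest. Those of 80% or more differed by 3.54 ± 1.11, those of 5 to 20% by 4.65 ± 4.78 and those under 5% by 0.269 ± 0.336, against 3.61, 5.30 and 0.223. The widest gap was at 5 to 20%, -0.649 ± 0.783 points, less than its spread over pairs. All 19 windows were higher with L-proline in all 4 pairs, as was the matched rest of all 19 chromosomes. The difference per window ran from 0.880 points on chromosome 13, 1.08 on chromosome 6 and 1.18 on chromosome 12 to 2.76 on chromosome 18, 3.15 on chromosome 5 and 3.90 on chromosome 17. Chromosome 5 exceeded its matched rest in all 4 pairs, by 0.237 ± 0.209 points, and chromosomes 10 and 13 lay below it in all 4, with gaps of -0.700 ± 0.233 and -0.548 ± 0.406. Chromosome 5 thus had a larger difference than its matched rest with each supplement, and chromosome 10 a smaller one.

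No subtelomeric tile was called for L-proline in either direction, as among all tiles (0%), and the smallest limma adjusted p at the ends was 0.227. At an unadjusted limma p under 0.05, 238 subtelomeric tiles were higher (14.3%), beside 15.2% of all tiles, and 13 were lower (0.782%), beside 0.767%. Higher in all 4 pairs were 444 (26.7%), beside 28.0% of all tiles, and lower in all 4 were 24 (1.44%), beside 1.60%. The median tile difference was 1.38 points at the ends and 1.60 over all tiles. A quasi-binomial model called 0 subtelomeric tiles and 19 of the 50167 tiles higher with L-proline.

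The largest gain with L-proline was in the tile on chr15:100910001-100911000 (3 CpGs, 50 to 137 reads), which did not pass. It was at 33.6% in untreated cells, 69.8% with L-proline, 36.4% with vitamin C and 58.4% with both on day 2. On day 5 it was at 71.7%, 92.1%, 29.2% and 58%. Untreated cells of day 5 exceeded 3 of the 4 libraries with L-proline, so the groups overlapped, and the mean difference was 26.9 ± 7.18 points (limma adjusted p = 0.230).

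The tile on chr8:129063001-129064000 (5 CpGs) averaged 66.4% with and 39.95% without L-proline. That on chr2:179664001-179665000 (6 CpGs) averaged 72.3% and 46.7%, and that on chr15:100517001-100518000 (6 CpGs) 49.5% and 24.4%. The tile on chr10:128015001-128016000 (3 CpGs) averaged 50.6% and 25.7%. In each of these 4 tiles vitamin C alone gave the lowest level of its day and L-proline alone the highest. Losses were smaller: -8.92 ± 6.21 points on chr12:120286001-120287000 and -8.90 ± 1.80 on chr4:152836001-152837000. The other 3 named losses were on nearly unmethylated tiles, -1.63 on chr9:121403001-121404000, -1.33 on chr7:152081001-152082000 and -1.22 on chr11:121122001-121123000. None of these tiles passed.

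From day 2 to day 5 methylation at the ends was higher without vitamin C and slightly lower with it. Untreated cells differed by 2.02 points and L-proline by 2.64, against -0.472 for vitamin C and -0.505 for both. The mean was 0.921 ± 1.65 points (SD over the 4 pairs; exact sign-flip permutation p = 0.5), less than the spread between pairs. The matched rest gave 2.08, 2.64, -0.657 and -0.378, and the gap of the ends to it was 0.000271 ± 0.133 points. Chromosome 5 had the largest difference per window, 1.84 points, followed by chromosomes 16 (1.24) and 4 (1.15), and chromosomes 3 (0.230), 13 (0.313) and 6 (0.489) the smallest.

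No subtelomeric tile was called for day in either direction (0% of all tiles), with a smallest limma adjusted p of 0.590. The day term of the model was shared by libraries with and without vitamin C, whose mean day differences had opposite signs. The lack of calls therefore does not bear on a day change confined to either group. At an unadjusted limma p under 0.05, 107 were higher and 17 lower, or 6.43% and 1.02% of the 1663 subtelomeric tiles, beside 6.56% and 0.973% of all tiles. A quasi-binomial model called 0 subtelomeric tiles and 7 of all 50167 higher on day 5. The largest gain was in the tile on chr5:149551001-149552000 (3 CpGs, 51 to 156 reads), which did not pass (limma adjusted p = 0.590). It went from 13.5% to 52.4% in untreated cells and from 28.3% to 69.3% with L-proline, from 15.7% to 16.2% with vitamin C and from 25% to 51.7% with both. With vitamin C alone it stayed near its day 2 level. Next were chr16:95958001-95959000 (23.2 points) and chr7:152045001-152046000 (20.3 points). The largest losses were -9.61 points on chr2:178862001-178863000, -8.55 at chr2:180089001-180090000 and -8.36 on chr19:59722001-59723000.

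Between single libraries, Fisher's exact test was run on the methylated and unmethylated reads of each CpG, with a call at an adjusted p under 0.05 and 20 points or more. These tests compare 2 libraries, not conditions. On day 2, 102 subtelomeric CpGs (0.470%) were lower with vitamin C than without, beside 0.487% of all CpGs, and 116 (0.535%) were lower with both supplements than with L-proline, beside 0.609%. On day 5 the counts were 592 (2.73%), beside 2.95%, and 1216 (5.61%), beside 5.67%. Each share at the ends lay slightly under its background, but at 20 reads the last was 5.42% at the ends and 5.07% of all CpGs. Higher with vitamin C were 7, 1, 0 and 3 subtelomeric CpGs in the same 4 comparisons. These were 0.0323%, 0.00461%, 0% and 0.0138% of subtelomeric CpGs, beside 0.0263%, 0.00161%, 0.00417% and 0.0120% of all CpGs. The day 5 pairs had several times as many calls as the day 2 pairs, at the ends as in the whole set.

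With L-proline, 17 subtelomeric CpGs (0.0784%) were higher than untreated on day 2, beside 0.0954% of all CpGs, and 152 (0.701%) on day 5, beside 0.715%. Added to vitamin C, L-proline gave 62 higher (0.286%) on day 2, beside 0.321%, and 12 (0.0553%) on day 5, beside 0.0872%. Lower were 1, 4, 8 and 2 in the same order (0.00461%, 0.0184%, 0.0369% and 0.00922%), beside 0.00112%, 0.00771%, 0.0337% and 0.00385% of all CpGs. From day 2 to day 5, 19 were higher in untreated cells (0.0876%), beside 0.121%, and 195 with L-proline (0.899%), beside 0.884%. With vitamin C 12 were lower (0.0553%), beside 0.0742%, and with both 8 (0.0369%), beside 0.0146%. In the reverse direction 0 were lower in untreated cells (0%) and 1 with L-proline (0.00461%), beside 0.00193% and 0.00915%. With vitamin C 4 were higher (0.0184%) and with both 1 (0.00461%), beside 0.0308% and 0.00755%. Few CpGs were called in these comparisons, and the shares in the leading direction were within the same order as the background.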

How the data were processed

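The authors' files give each CpG a methylated fraction and a coverage in reads, deposited with no stated normalization and a minimum of 10 reads. Per the submitters' processing notes, CASAVA, BSMAP 2.88 and mm9 were used; roles and settings are not given in the sources used here. Coverage times fraction came within 0.0005 times the coverage of whole methylated reads for at least 99.98% of CpGs up to 300 reads. Contig lambda, usually the conversion control, read 0.195% to 0.513% methylated. PCR duplicates cannot be told apart, so Fisher tests cover counting error only.

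Levels are means of CpG percentages. Density classes were 1 to 2, 3 to 5, 6 to 10, 11 to 20, 21 to 40 and 41 or more covered CpGs per fixed 1 kb tile. Pairs share the other factors, and sign-flip tests enumerate 16 assignments (256 for 8 libraries). Python 3.11.15 and limma 3.58.1 (R 4.3.3) were used. Tiles were fitted on log2((methylated + 1)/(unmethylated + 1)) reads, with 4 residual degrees of freedom and Benjamini-Hochberg adjustment over all tiles. In simulated data for the vitamin C term over 50167 tiles, limma recovered 35% of 20-point and 100% of 40-point changes. For the vitamin C pair of day 5 over 622768 CpGs, Fisher's test recovered 9% of 40-point and 40% of 55-point changes. Each simulation changed only a small number of methylated tiles or CpGs, far fewer than were called with vitamin C in the data. The adjusted cutoff was thus stricter there, and these shares are not the sensitivity of the tests on the real data.

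Named tiles are, among subtelomeric tiles moving the same way in all 4 pairs, the 5 largest losses and gains for each supplement and 3 for day, called tiles first. Members and rules were chosen with earlier results of these data known. The finer distance steps, single-chromosome values of the outer 1 Mb and leaving out chromosomes were chosen after seeing the data. No mm9 annotation was used, so tiles carry no gene names, and a list of imprinted genes of distal chromosome 7 was not analysed here. Alternatives varied depth, window, weighting, matching, pseudocount, centring, tile size, model and libraries.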

Additional observations from a re-analysis of the deposited data

Results flagged for a closer look

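At chromosome ends the day difference was positive in both pairs lacking vitamin C and negative in both pairs given it, a contrast of 2.82 points (exact two-sided permutation p = 0.333, the smallest that 6 groupings allow). The matched rest gave 2.876 points.

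The distal 3 Mb of chromosome X, outside the autosomal rule, held 123 CpGs with a mean of 19.7% over the 8 libraries (15.7% to 24.2%), against 12.4% in the density-matched rest of X. It was above the rest in 8 of 8 libraries, by 7.30 ± 1.49 points. The region drew attention as one outside both the windows and their matched rest. Chromosome X entered above only through the tests and shares over all tiles and all CpGs. Its vitamin C difference was -4.36 ± 0.718 points (SD, n = 4 pairs), with a gap to the matched rest of X of -2.04 ± 0.799.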

How the results depend on the processing

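No paired analysis by replicate number was possible because the labels give none and each treatment and day has 1 library; the 4 pairs of the report match libraries by their other factors. The vitamin C, L-proline and day differences at the ends kept their sign under all alternatives run, with ranges over the left-out pairs of -4.61 to -3.36, 1.64 to 2.05 and 0.349 to 1.40 points; the p of 4 pairs cannot pass 0.05, so it says nothing on stability. The gaps to the matched rest did not keep theirs. With 20 reads the level gap was 0.205 and the day gap -0.0359, with windows of 5 Mb the level gap was 0.282 and the L-proline gap 0.0333, and with windows of 1 Mb the vitamin C gap was 0.0852 and the day gap -0.225. Pooled reads gave an L-proline gap of 0.0408, equal weight per chromosome a vitamin C gap of 0.0610 and a day gap of -0.131, and no density matching 0.116 and -0.0450. Matching on methylation class gave a day gap of -0.00596. Leaving out pairs gave gaps of -0.172 to -0.0918 for vitamin C, -0.0974 to 0.00661 for L-proline and -0.0614 to 0.0425 for day. Leaving out libraries gave level gaps of -0.280 to -0.242, and leaving out chromosome 15 gave 0.289. The cause of these shifts was not tested.

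Subtelomeric tiles called lower with vitamin C numbered 396. They were 155 of 1016 with 5 or more CpGs (15.3%, beside 14.9% of all tiles), 123 of 945 with 20 reads (13.0%, beside 11.7%), 18 with the quasi-binomial model (beside 594 of 50167), 9 after centring libraries to one median (beside 205), and 100 to 470 without 1 library (beside 2659 to 14136). All these calls were lower. At 20 reads, with 12496 subtelomeric CpGs, Fisher's test called 56 and 73 lower with vitamin C on day 2. On day 5 it called 319 and 677 (each without and with L-proline). The shares were 0.448%, 0.584%, 2.55% and 5.42% at the ends, beside 0.449%, 0.679%, 2.69% and 5.07% of all CpGs. Fisher's test called 11 and 91 higher with L-proline alone on day 2 and day 5, and 21 when added to vitamin C on day 2. By day 5 it called 7 higher in untreated cells and 5 lower with both. These were 0.0880%, 0.728%, 0.168%, 0.0560% and 0.0400% of subtelomeric CpGs, beside 0.115%, 0.797%, 0.214%, 0.150% and 0.0138%.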

Other observations

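The proximal ends of the same 19 chromosomes, the first 3 Mb from the lowest covered CpG, offered a second chromosome end for comparison, added after the data had been seen. Their 15241 CpGs averaged 17.5% over the 8 libraries against 17.9% in the density-matched rest, a gap of -0.383 ± 0.378 points (SD, n = 8 libraries), above the rest in 1 of 8. With vitamin C they differed by -3.45 ± 1.53 points (SD, n = 4 pairs), which was 0.602 ± 0.280 less negative than the matched rest, in 4 of 4 pairs. With L-proline they differed by 1.76 ± 0.544 points, with a gap of -0.204 ± 0.104, negative in 4 of 4 pairs. The distal ends had gaps of -0.127 and -0.0503 for the same supplements. The difference between proximal and distal ends was not tested.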
